A study of Mus musculus with 20 samples.

Results

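The genes described here encode the machinery of oxidative phosphorylation in NIH3T3 cells, an established line of mouse embryo fibroblasts. They were chosen by symbol alone, with no measured value: every gene of the count table whose symbol begins with Nduf, Sdha to Sdhd, Uqcr, Cox4 to Cox8 or Atp5, together with Cyc1 and Cycs. The rule found 88 of the 11075 genes in the table. Of these, 76 encode subunits of the respiratory chain complexes and ATP synthase: 35 of complex I, 4 of complex II, 9 of complex III, 13 of complex IV and 15 of complex V. Ndufa4 was counted with complex IV, the complex its protein is now assigned to. The other 12 are not subunits: Ndufaf1, Ndufaf2, Ndufaf3, Ndufaf6, Ndufaf7, Sdhaf1, Sdhaf3 and Sdhaf4 are assembly factors, Atp5sl is a factor of complex I assembly despite its symbol, and Atp5s, Cox7a2l and Ndufa4l2 are relatives of subunits or accessory factors. Cycs, which encodes the cytochrome c that carries electrons to complex IV, and the 13 subunits encoded by mitochondrial DNA were not analysed here.

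Complex I takes electrons from NADH, and complex II, which is also the succinate dehydrogenase of the citric acid cycle, takes them from succinate. Both pass them through coenzyme Q to complex III, which hands them by way of cytochrome c to complex IV, where they reduce oxygen. The protons that complexes I, III and IV move across the inner mitochondrial membrane drive ATP synthesis by complex V. All complexes but II combine nuclear subunits with subunits made from mitochondrial DNA. Each complex needs assembly factors, some of which insert hemes, iron-sulfur clusters or copper. Many of the nuclear subunit genes carry promoter sites for the factors NRF1, GABP (an ETS protein) and YY1, on which coactivators of the PGC-1 family act.

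The cells were exposed for 2 h or 4 h to 1% CO2, or for 2 h or 4 h to 18 mM NaOH under 5% CO2, and were set against cells kept under 5% CO2 and collected at 0 h. There were 4 libraries in each of the 5 groups, 20 in all. The NaOH cells served as a control for the alkaline medium that comes with low CO2, so the comparison of 1% CO2 with NaOH at equal times addresses what differs when the pH of the medium is similar. The cells given 1% CO2 were moved to a special incubator with 20% oxygen, a move the study does not describe for the NaOH cells. In the comparison of 1% CO2 with NaOH, the CO2 level, the added NaOH and the move therefore cannot be told apart. No untreated library of 2 h or 4 h was analysed here, so the treatment, the time in culture and the move cannot be told apart in the comparisons with 0 h, and those 4 comparisons share the same 0 h libraries. RNA was measured by bulk 3′-end sequencing (MARS-seq), in which each RNA molecule is counted once at its 3′ end, so that counts of different genes can be set side by side without a length correction. The study describes the replicates of a condition as biological, and the p-values measure the spread between these libraries.

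The libraries held 1325293 to 5640523 counts. All 8 fibroblast markers chosen as a check of the label were in the table, with a summed level of 107309 to 144999 normalized counts per library, whereas of the epithelial, immune, endothelial, fat and muscle markers only Cdh1 (at most 8.91), Cd68 (at most 9.16) and Des (9.30 to 28.0) were in it. Normalized counts are counts divided by the TMM-scaled total of their library and multiplied by the mean of those totals, where TMM factors set the bulk of genes level between libraries. Of the 88 genes, 86 had a mean of at least 5 normalized counts and were tested, among 9726 genes in all. The other 2 were Ndufa4l2, with 0 to 7 raw counts per library, and the muscle isoform Cox7a1, with 0 to 6.

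The promoters of 5 members described below are shown here because 4 of them hold a match to one of the 3 factors named above and 1 holds none. Each runs from 250 bases before to 50 bases after the RefSeq start of the gene (build GRCm38.p6), 5′ to 3′ on the strand of the gene, with the matches in capitals. The windows are chr16:37654319-37654618 (minus strand) for Ndufb4, chr15:82354242-82354541 (minus strand) for Ndufa6, chr10:80249199-80249498 (plus strand) for Ndufs7, chr4:140961021-140961320 (plus strand) for Sdhb and chr10:80142025-80142324 (plus strand) for Atp5d.
Ndufb4: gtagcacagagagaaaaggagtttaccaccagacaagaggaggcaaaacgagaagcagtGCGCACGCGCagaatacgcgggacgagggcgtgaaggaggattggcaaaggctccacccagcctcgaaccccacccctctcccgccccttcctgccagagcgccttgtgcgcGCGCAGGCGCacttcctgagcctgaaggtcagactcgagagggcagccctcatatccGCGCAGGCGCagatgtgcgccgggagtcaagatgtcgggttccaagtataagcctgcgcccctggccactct
Ndufa6: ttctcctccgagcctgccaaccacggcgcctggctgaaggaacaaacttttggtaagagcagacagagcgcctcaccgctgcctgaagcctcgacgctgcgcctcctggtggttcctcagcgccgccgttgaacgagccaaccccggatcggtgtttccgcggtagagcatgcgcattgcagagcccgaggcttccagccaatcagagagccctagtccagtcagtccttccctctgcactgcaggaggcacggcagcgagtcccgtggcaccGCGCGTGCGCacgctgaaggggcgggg
Ndufs7: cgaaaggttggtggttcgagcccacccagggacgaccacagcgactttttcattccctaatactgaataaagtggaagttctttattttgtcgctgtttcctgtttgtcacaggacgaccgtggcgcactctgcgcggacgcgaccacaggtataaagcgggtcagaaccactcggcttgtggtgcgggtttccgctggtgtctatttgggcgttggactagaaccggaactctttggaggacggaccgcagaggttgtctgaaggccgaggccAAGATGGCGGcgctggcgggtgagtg
Sdhb: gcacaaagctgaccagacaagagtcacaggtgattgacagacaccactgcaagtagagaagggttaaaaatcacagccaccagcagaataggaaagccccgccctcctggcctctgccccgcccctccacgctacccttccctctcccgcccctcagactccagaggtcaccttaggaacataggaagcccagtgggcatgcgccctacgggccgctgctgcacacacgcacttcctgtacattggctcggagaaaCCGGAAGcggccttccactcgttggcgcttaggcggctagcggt
Atp5d: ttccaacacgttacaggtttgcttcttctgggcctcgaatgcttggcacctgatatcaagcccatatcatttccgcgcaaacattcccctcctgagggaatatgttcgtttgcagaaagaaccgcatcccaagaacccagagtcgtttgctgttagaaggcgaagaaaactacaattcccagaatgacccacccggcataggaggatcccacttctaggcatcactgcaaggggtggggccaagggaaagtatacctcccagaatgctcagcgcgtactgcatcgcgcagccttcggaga

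The letters searched for NRF1 were those in capitals in the Ndufb4 promoter, with any base at the sixth letter, for ETS proteins CCGGAAG, and for YY1 those in capitals in the Ndufs7 promoter. Both strands were searched. The Ndufb4 promoter held 3 NRF1 matches, whose first bases lie 191, 79 and 22 bases before the start. The Ndufa6 promoter held 1 NRF1 match on the opposite strand at base 23 after the start, the Ndufs7 promoter a YY1 match at base 24, and the Sdhb promoter an ETS match at base 6. A window was given for 73 of the members. Of these, 18 (24.7%) held an NRF1 match, against 5.19% of the 27025 genes of the reference with a window. An ETS match was held by 19 (26%), against 9.93%, and a YY1 match by 6 (8.22%), against 0.995%. At least 1 of the 3 was found in 36 members (49.3%), against 14.6% of all genes with a window. Where a gene had several windows, a match in any of them counted, and the window shown is one with matches to the most factors. A match is a description of these letters, and no match, as in Atp5d, says only that the letters are not in this window.

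Within their groups, 3 libraries, picked after the data were seen, stood apart from the others: 1% CO2 2 h replicate 3, 1% CO2 4 h replicate 2 and NaOH 2 h replicate 4. Their deviations from their own group means went together, with correlations of 0.69, 0.63 and 0.52 over 2890 genes (each pair of the 3) and of 0.81, 0.81 and 0.73 over 73 members with at least 100 normalized counts. The highest correlation of any other pair from different groups was 0.47 over the 2890 genes. The SD of the members' log2 deviations was 0.192 to 0.222 in these 3 libraries and 0.0743 to 0.144 in the other 17. Cox5b, a zinc-binding subunit of complex IV, shows this. In the 1% CO2 2 h libraries it had 1923, 1787, 1130.5 and 1969 normalized counts, in the 1% CO2 4 h libraries 1768, 1036, 1608 and 1782, and in the NaOH 2 h libraries 1847, 1712, 1751 and 1288, so that the lowest of each group was the library that stood apart. Atp5j, a stalk subunit of complex V, was likewise lowest in those 3 libraries, and Ndufb4, a membrane arm subunit of complex I, was highest. Their part in the results was not tested, and counts are therefore also given for the 17 other libraries.

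**Figure D1:**
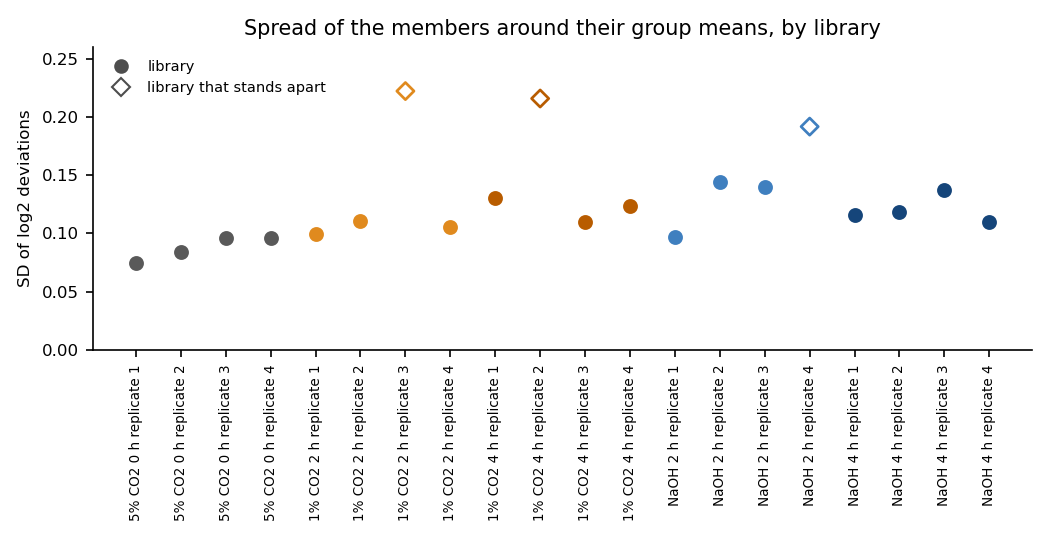
SD, over 73 members, of the log2 deviation from the mean of the member's own group, with 1 point for each of the 20 libraries along the x axis and open diamonds for the 3 that stood apart. These 3 (1% CO2 2 h replicate 3, 1% CO2 4 h replicate 2 and NaOH 2 h replicate 4) lie at 0.192 to 0.222, above the other 17.

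The subunit genes were abundant. At 0 h the median of their mean levels was 985 normalized counts, against 87.0 over all genes tested, and 70 of 75 had at least 100 and 37 at least 1000. In rising order the medians were those of complex II (549), complex I (764), complex III (877), complex IV (1479) and complex V (1779). Within each complex the levels spread widely. In complex I they ran between 6.499 for Ndufa11 and 2865 for Ndufb9, in complex II between 426 for Sdha and 1271 for Sdhb, in complex III between 13.03 for Uqcrb and 3528 for Uqcrq, in complex IV between 35.1 for Cox6a2 and 6697 for Cox6a1, and in complex V between 43.2 for Atp5g2 and 5789 for Atp5b. For Atp5c1, Atp5g1, Atp5g2, Atp5h, Atp5o, Cox6a1 and Cox7c another gene of the reference, such as a pseudogene, has a nearly identical 3′ end (at least 95% identity over at least 150 of the last 200 bases), so reads could have been split or lost and the levels of these 7 are uncertain.

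Together the subunit genes took 3.37% ± 0.0578 of all counts at 0 h, 3.28% ± 0.111 after 2 h and 3.22% ± 0.0836 after 4 h of 1% CO2, and 2.95% ± 0.0783 after 2 h and 2.95% ± 0.0492 after 4 h of NaOH (SD, n = 4 libraries each). The NaOH libraries were thus below those of 0 h, at 2.86% to 3.05% (2 h) and 2.88% to 2.995% (4 h), against 3.33% to 3.46%. This rests on the scale. With TMM factors the share was 3.12% at NaOH 4 h and 3.12% at 0 h, and 3.23% at 1% CO2 4 h. Less RNA per cell and fewer cells of a kind cannot be told apart in bulk samples.

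The complexes did not keep the same proportions. Complex I took 0.926% ± 0.0295 of counts at NaOH 2 h and 0.912% ± 0.0229 at NaOH 4 h, against 1.11% ± 0.0212 at 0 h, and was on average lower on the TMM scale too, at 0.974% and 0.966%, against 1.03%. There the ranges overlapped, with 0.921% to 1.04% at NaOH 2 h and 0.916% to 1.03% at NaOH 4 h, against 1.01% to 1.05% at 0 h, and 1 library of each NaOH group lay inside the 0 h range. Complex II took 0.0692% ± 0.00365 at NaOH 4 h and 0.0746% ± 0.00669 at 1% CO2 4 h, against 0.0888% ± 0.00266 at 0 h, and was again lower on average on the TMM scale, at 0.0731% and 0.0748%, against 0.0823%. The NaOH 4 h libraries, at 0.0698% to 0.0751%, did not overlap those of 0 h, at 0.0801% to 0.0845%, whereas the 1% CO2 4 h libraries did, at 0.06995% to 0.084%. Complexes III and V turned with the scale. At NaOH 4 h the shares of complexes III, IV and V in the total were 0.363% ± 0.0113, 0.682% ± 0.0153 and 0.923% ± 0.0169, against 0.385% ± 0.0133, 0.795% ± 0.0132 and 0.987% ± 0.0193 at 0 h. On the TMM scale the means of complexes III and V were above 0 h, at 0.384% and 0.976%, against 0.356% and 0.915%. The libraries of complex V did not overlap (0.933% to 1.003% against 0.91% to 0.925%) and those of complex III did (0.361% to 0.411% against 0.343% to 0.366%). The mean of complex IV was below 0 h on this scale as well, at 0.722%, against 0.737%, and its libraries overlapped (0.683% to 0.764% against 0.718% to 0.751%). These shares are given as a description, and the differences between complexes were not tested.

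**Figure D2:**
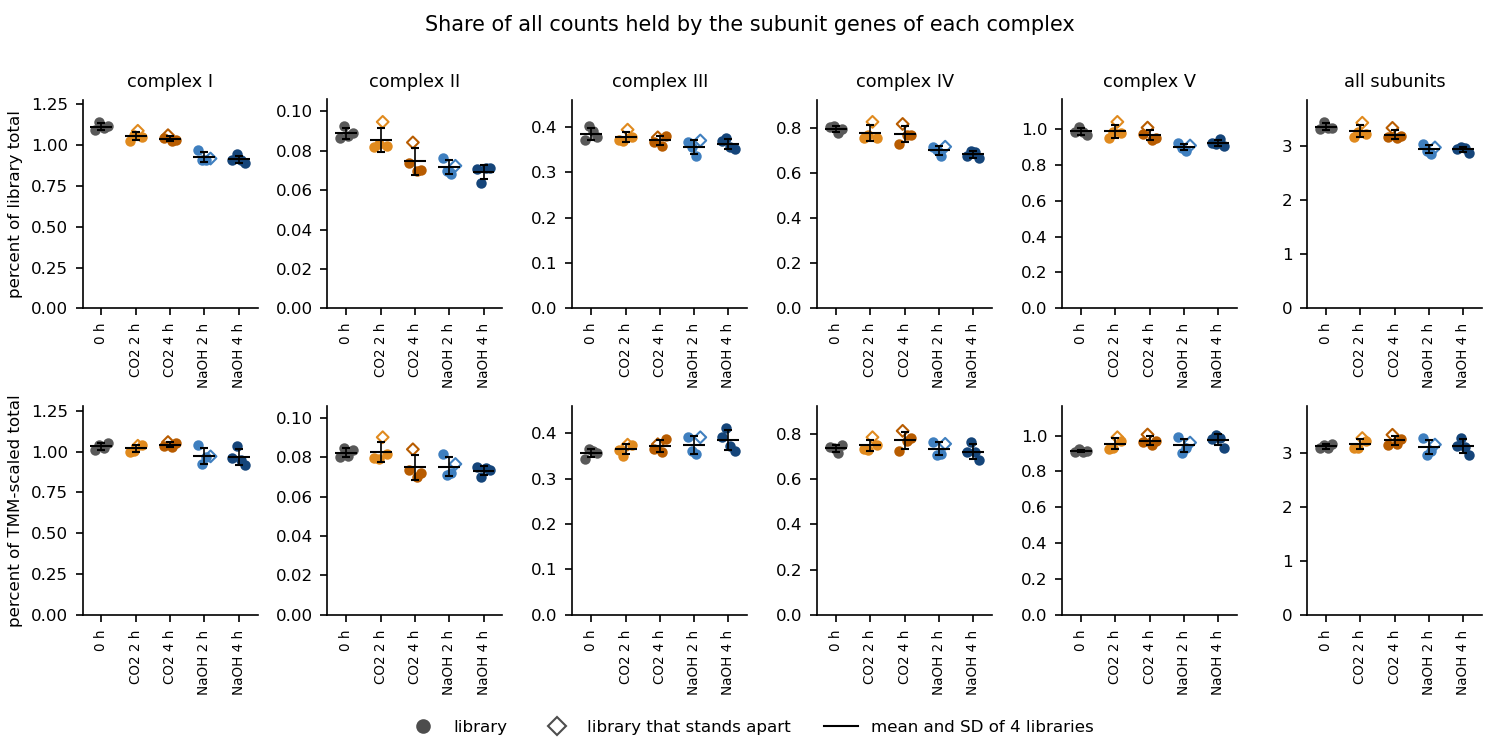
Share of counts taken by the subunits of complexes I to V in each of the 20 libraries, as a percentage of the library total (top row) and of the TMM-scaled total (bottom row), with the mean and SD of the 4 libraries of each group. The mean of complex I is lower with NaOH than at 0 h on both scales, with 1 library of each NaOH group inside the 0 h range on the lower one, whereas the means of complexes III and V at NaOH 4 h are lower than at 0 h in the top row only.

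The genes were compared in 8 ways with the quasi-likelihood test of edgeR, fitted over all 9726 genes, and a gene was called where its p, adjusted over these genes by Benjamini and Hochberg, was at most 0.05. Few of the 86 members were called with 1% CO2. At 2 h, 1 was higher and 3 lower than at 0 h, whereas 16% of all genes tested were called higher and 12.4% lower. At 4 h, 5 were higher and 8 lower, against 20.3% and 18.9% of all genes. With NaOH, 4 were higher and 15 lower at 2 h, against 23% and 20.4% of all genes, and 7 were higher and 22 lower at 4 h, against 28.2% and 26.9%. The share of members called higher was below that of all genes in all 4 comparisons. The members were more abundant than most genes, so the 2890 genes with a mean of at least 200 normalized counts are set beside them as well. At NaOH 2 h, 4.65% of members and 36.2% of those genes were called higher, and 17.4% and 10.3% lower. At NaOH 4 h, 8.14% and 42.6% were higher, and 25.6% and 16.9% lower. The median log2FC was -0.08 in members and 0.11 in those genes at NaOH 2 h, and -0.09 and 0.14 at NaOH 4 h. These differences between members and abundant genes were not tested.

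Between treatments, members were more often higher than lower with 1% CO2. At 2 h, 11 were higher and 5 lower than with NaOH, against 14.9% and 17.1% of all genes, and at 4 h 18 were higher and 4 lower, against 16.3% and 19.2%. Between 4 h and 2 h of 1% CO2, 3 were higher and 1 lower, against 7.74% and 7.55% of all genes, and between 4 h and 2 h of NaOH 4 were higher and 2 lower, against 16% and 16.5%. Of the 2890 abundant genes, 12% were higher and 25.4% lower with 1% CO2 than with NaOH at 2 h, and 15.4% and 30.1% at 4 h. In the order in which the 8 comparisons are given here, the 17 libraries without those that stood apart gave 1 and 5, 7 and 6, 2 and 19, 9 and 27, 10 and 1, 16 and 3, 6 and 0, and 4 and 3 members higher and lower. Library totals without TMM factors moved the median of all genes by -0.07, -0.12, -0.21, -0.19, 0.12, 0.07, -0.06 and 0.01 on the log2 scale, and then 0 and 6, 0 and 20, 0 and 48, 0 and 52, 33 and 1, 30 and 2, 3 and 7, and 3 and 2 members were higher and lower. No member was called higher than at 0 h on that scale, so a rise below is a rise relative to the bulk of genes.

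The changes were small. In each comparison 79 to 84 of the 86 members had a log2 fold change (log2FC) under 0.5 in size, as had 58.2% to 85.2% of all genes and 70.3% to 94.9% of the abundant ones, and the median SE of a member was 0.09. Changes of at least 2-fold were called in 0 to 2 members. The counts were 0 at 1% CO2 2 h (5.53% of all genes), 1 at 1% CO2 4 h (8.04%), 0 at NaOH 2 h (12%), 2 at NaOH 4 h (15.6%), 1 and 1 in the comparisons of 1% CO2 with NaOH at 2 h and 4 h (6.51% and 6.48%), and 0 and 0 between 4 h and 2 h of 1% CO2 and of NaOH (1.33% and 6.8%). In the 4 comparisons with 0 members, edgeR at an unadjusted p under 0.05 and DESeq2 gave 0 as well. None of the 2-fold changes was in a subunit gene apart from Ndufa11, which is near the limit of detection. Of the 86 members, 34 (31 of them subunits) were called in none of the 8 comparisons, which is 39.5%, against 20.1% of all genes, and 42 in none of the 4 with 0 h (48.8%, against 25.8% of all genes).

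**Figure D3:**
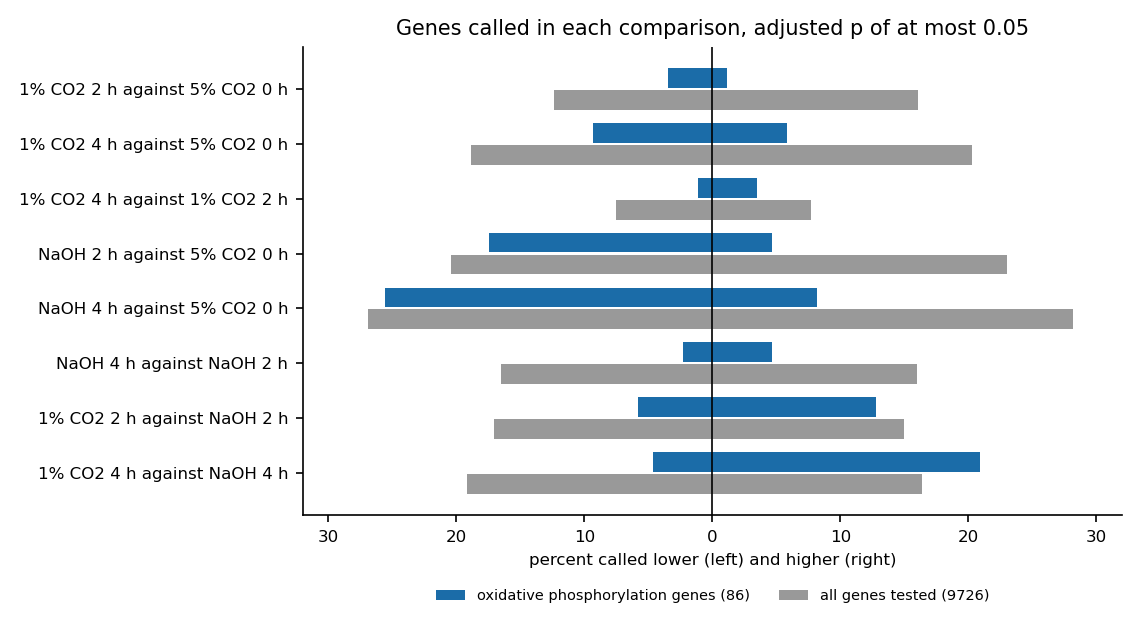
Percentage of the 86 members and of all 9726 genes tested that were called lower (bars to the left) and higher (bars to the right) in each of the 8 comparisons. The members' bars are the shorter ones except for the 4 h comparison of 1% CO2 with NaOH, where the bar of higher members is longer, and at NaOH 4 h the bars of lower genes stand at 25.6% of members and 26.9% of all genes.

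With NaOH the calls are given by complex, and differences between complexes were not tested. Of all genes, 23% were called higher and 20.4% lower at NaOH 2 h, and 28.2% and 26.9% at NaOH 4 h. At NaOH 4 h the shares called lower in complexes I (31.4%) and IV (25%) and higher in complex V (26.7%) were near those of all genes. At 4 h, 11 of 35 complex I subunits and 2 of 4 complex II subunits were lower and none higher than at 0 h, with median log2FC of -0.11 and -0.15. In complex III 2 of 9 were higher and 1 lower (median 0.11), in complex IV 3 of 12 were lower (median -0.01), and in complex V 4 of 15 were higher and none lower (median -0.04). At NaOH 2 h, 8 complex I subunits were lower and 1 higher (median -0.09), 1 of complex II, 1 of complex III, 2 of complex IV and 1 of complex V were lower, and 1 of complex III and 2 of complex V were higher. The median of all genes was -0.03 at NaOH 2 h and 0 at NaOH 4 h. With library totals in place of TMM factors complex I still stood at -0.11 and complex III at 0.11 relative to the median of all genes at NaOH 4 h, although the complex III median itself turned to -0.09. On that scale no subunit of complexes I, III and V was higher, and 26, 2 and 6 were lower at NaOH 2 h and 26, 2 and 7 at NaOH 4 h. Of all genes, 52% were then called in either direction at NaOH 2 h and 58.7% at NaOH 4 h. Without the 3 libraries that stood apart complex I had 1 subunit higher and 14 lower at NaOH 4 h and 0 higher and 10 lower at NaOH 2 h, and complex V had 4 higher and 1 lower at NaOH 4 h. Without them 41.9% of all genes were called in either direction at NaOH 2 h and 58.3% at NaOH 4 h.

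With 1% CO2 the median log2FC of complexes I to V against 0 h were 0.01, 0.03, 0.02, -0.04 and 0.03 at 2 h and 0.05, -0.20, -0.03, 0.05 and 0.03 at 4 h. At 2 h no subunit of complexes I to IV was called by edgeR or DESeq2, with 2, 0, 0 and 0 at an unadjusted p under 0.05, and in complex V Atp5g3 was higher and Atp5l lower. At 4 h complex I had 2 higher and 2 lower, complex II 2 lower, complex III 1 higher, complex V 2 higher and 2 lower, and complex IV none by edgeR or DESeq2 and 3 at an unadjusted p under 0.05. In the comparison of 1% CO2 with NaOH at 4 h, 11 of 35 complex I subunits were higher and none lower (median 0.14), and 3 of 12 complex IV subunits were higher and none lower (median 0.11). Complexes II and III had 1 and 2 lower and none higher (medians 0.07 and -0.02), and complex V had 2 higher and 1 lower (median -0.02). In this comparison 16.3% of all genes were called higher and 19.2% lower. Without the 3 libraries complex I had 8 higher and 0 lower there, and 34.2% of all genes were called in either direction.

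**Figure D4:**
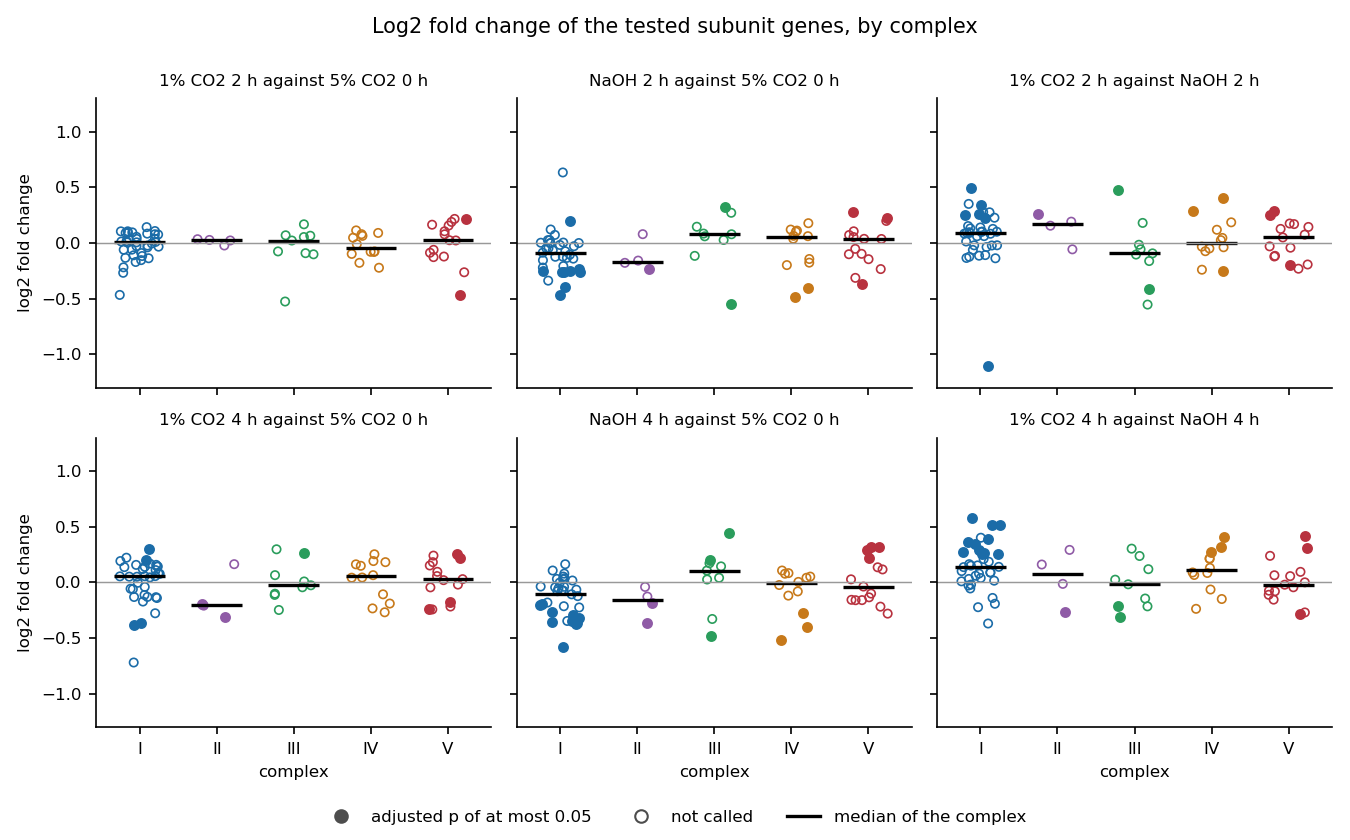
Log2 fold change (y axis) of each of the 75 tested subunit genes by complex (x axis) in the comparisons of each treatment with 0 h and of 1% CO2 with NaOH, with filled points for subunits called at an adjusted p of at most 0.05, open points for the others and a line at the median of the complex. At NaOH 4 h the filled points of complex I, 11 of 35, all lie below 0, and the 4 of complex V above it. In that comparison 26.9% of all genes tested were called lower and 28.2% higher.

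Calls that were kept when each single library was left out, and also when the 3 libraries that stood apart were left out together, are the ones described first in each complex. There were 55 of them among the 113 calls of the 8 comparisons, 24 higher and 31 lower, and 20 of the 29 at NaOH 4 h. The share of calls kept over all genes is not given here, so these counts describe the members only. Values are normalized counts per library in the order of the replicates, and log2FC is given with its SE and the adjusted p over all genes. Where a called difference is given with the values of both groups, no library of one group reached the range of the other unless an overlap is stated.

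Complex I is an L-shaped assembly whose arm in the matrix holds the NADH site and the iron-sulfur clusters and whose membrane arm pumps protons. Its core subunits are surrounded by accessory ones. Ndufb4, an accessory subunit of the membrane arm whose promoter with 3 NRF1 matches is shown above, had 236, 173, 214 and 202 in the NaOH 4 h libraries, against 283, 315, 311 and 333 at 0 h. All 4 NaOH libraries were lower than every 0 h library, and the gene fell (log2FC -0.58 ± 0.15 (SE), adjusted p = 0.00201). With 1% CO2 at 4 h it had 279, 389.5, 276 and 291, and was higher than with NaOH at 4 h (log2FC 0.58 ± 0.15 (SE), adjusted p = 0.00481), where the groups do not overlap. Replicate 2, a library that stood apart, gave the 389.5, and without the 3 such libraries the difference was 0.44 (adjusted p = 0.00052). At NaOH 2 h, with 224, 195, 181 and 284, it was lower than at 0 h apart from 1 library that just overlapped (-0.47, adjusted p = 0.0162), a call lost without NaOH 2 h replicate 3 (-0.38, adjusted p = 0.0675).

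Ndufb3, another membrane arm subunit, had 276, 325, 383 and 290.3 at NaOH 4 h, against 388, 424, 438 and 401 at 0 h (log2FC -0.37 ± 0.11 (SE), adjusted p = 0.00413). In the 1% CO2 4 h libraries it had 432, 501, 451 and 435, all above the NaOH 4 h libraries (log2FC 0.51 ± 0.11 (SE), adjusted p = 0.00037). Ndufa5, a subunit of the matrix arm, also differed between treatments at 4 h, with 409, 514, 419.9 and 442 with 1% CO2, against 329, 386, 273 and 264 with NaOH (log2FC 0.51 ± 0.13 (SE), adjusted p = 0.00189). Its fall at NaOH 4 h relative to 0 h (-0.35, adjusted p = 0.0194) was lost without any 1 of 4 libraries: -0.28, adjusted p = 0.0719 without 5% CO2 0 h replicate 2, -0.29, adjusted p = 0.0687 without 5% CO2 0 h replicate 3, -0.28, adjusted p = 0.0719 without NaOH 4 h replicate 3 and -0.27, adjusted p = 0.0789 without NaOH 4 h replicate 4. Ndufb4, Ndufb3 and Ndufa5 thus shared one order at 4 h, with the NaOH libraries below those of 1% CO2.

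Ndufa6, an accessory subunit that binds the acyl carrier protein, fell in both treatments at 4 h. It had 2293, 1917, 2217 and 2326 at 1% CO2 4 h and 2140.5, 2279.8, 2294 and 2215 at NaOH 4 h, against 2862, 2820.1, 2831 and 2906 at 0 h. Both groups of treated libraries lay below all 0 h libraries, with log2FC -0.38 ± 0.08 (SE), adjusted p = 0.00015 for 1% CO2 and -0.35 ± 0.08, adjusted p = 0.000221 for NaOH. Between the treatments it did not pass the test at 4 h (-0.03, adjusted p = 0.811). Its fall at NaOH 2 h (-0.23, adjusted p = 0.0155) was lost without NaOH 2 h replicate 4, a library that stood apart (-0.16, adjusted p = 0.103).

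Ndufab1, the mitochondrial acyl carrier protein itself, which also serves fatty acid synthesis, had 202, 166, 185 and 225 at NaOH 2 h, against 257, 280.5, 233 and 268 at 0 h (log2FC -0.40 ± 0.12 (SE), adjusted p = 0.00623). With 1% CO2 at 2 h it had 239.9, 281, 301 and 285, higher than with NaOH (log2FC 0.49 ± 0.12 (SE), adjusted p = 0.00157). Ndufc2, a membrane arm subunit, fell at both NaOH times. It had 557, 506, 551 and 585 at 2 h (log2FC -0.26 ± 0.08 (SE), adjusted p = 0.0107) and 462, 502, 591 and 499 at 4 h (log2FC -0.37 ± 0.08 (SE), adjusted p = 0.000301), against 679.9, 658, 673 and 638 at 0 h. Ndufb8, in the same arm, fell at NaOH 2 h (log2FC -0.26 ± 0.07 (SE), adjusted p = 0.00339), and Ndufs4, a matrix arm subunit whose loss in people causes a severe complex I deficiency, fell at NaOH 4 h (log2FC -0.32 ± 0.10 (SE), adjusted p = 0.00875).

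Ndufa13, an accessory subunit also known as GRIM-19, went the other way. It had 2928, 3224, 2821 and 2843 at 1% CO2 4 h, against 2209.7, 2402, 2546 and 2459.5 at 0 h (log2FC 0.30 ± 0.08 (SE), adjusted p = 0.00305), and was higher than with NaOH at 4 h, where it had 2367, 2457, 2303 and 2058 (log2FC 0.36 ± 0.08 (SE), adjusted p = 0.000492). Ndufb10, a membrane arm subunit, was also higher with 1% CO2 than with NaOH at 4 h (log2FC 0.28 ± 0.08 (SE), adjusted p = 0.00562). The other subunits called in that comparison (Ndufa1, Ndufa12, Ndufab1, Ndufb6, Ndufc2 and Ndufs7, all higher with 1% CO2) each lost the call without at least 1 single library.

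Among the core subunits that carry electrons, the call that was kept without each library was that of Ndufs7, which holds the last iron-sulfur cluster before coenzyme Q and whose promoter holds the YY1 match. It had 785, 849.6, 718 and 766 at NaOH 4 h, against 881, 1019, 1017 and 913 at 0 h, so that all 4 were lower (log2FC -0.30 ± 0.08 (SE), adjusted p = 0.00301). Ndufs3 and Ndufs8 were called in no comparison. Ndufs1, which holds several of the clusters, and Ndufv2 were lower at both NaOH times (-0.25 and -0.20 for Ndufs1, -0.25 and -0.27 for Ndufv2), but the calls of Ndufs1 were lost at 4 h without any 1 of 5 libraries, with adjusted p of 0.0612, 0.174 and 0.0529 without replicate 1, 2 or 3 of 0 h and 0.109 and 0.131 without NaOH 4 h replicate 2 or 4, and at 2 h without 0 h replicate 2 (adjusted p = 0.0636) or NaOH 2 h replicate 1 (adjusted p = 0.0531). Those of Ndufv2 were lost without NaOH 2 h replicate 3 (adjusted p = 0.1001) and NaOH 4 h replicate 4 (adjusted p = 0.0571). Ndufv1, which binds NADH, had log2FC 0.20 at NaOH 2 h (adjusted p = 0.0318). This call was lost without replicate 1, 2 or 4 of 0 h or replicate 1, 3 or 4 of NaOH 2 h, with an adjusted p of 0.0533 without 0 h replicate 2 and up to 0.109 without NaOH 2 h replicate 4.

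The changes of largest size related to complex I were in assembly factors. Ndufaf7, an arginine methyltransferase, had 29.7, 17.2, 24.3 and 20.1 at NaOH 4 h, against 52.9, 63, 59 and 46.4 at 0 h. Every NaOH 4 h library was lower (log2FC -1.24 ± 0.30 (SE), adjusted p = 0.00149). With 1% CO2 at 4 h it had 48.4, 79.1, 64.4 and 50.6, above every NaOH 4 h library (log2FC 1.38 ± 0.32 (SE), adjusted p = 0.00159). The highest of these, in the library that stood apart, did not decide the difference, which was 1.22 (adjusted p = 1.48e-05) without the 3 libraries.

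Ndufaf3, which acts early in assembly, fell in both treatments at 4 h. It had 31.1, 19.8, 23.5 and 34.8 at 1% CO2 4 h (log2FC -0.96 ± 0.21 (SE), adjusted p = 0.00042) and 26.3, 25.2, 25.2 and 32.7 at NaOH 4 h (log2FC -0.95 ± 0.20 (SE), adjusted p = 0.000171), against 51.3, 62.2, 34.5 and 60.8 at 0 h. Only the highest 1% CO2 library overlapped the lowest of 0 h. Ndufaf2, a chaperone of late assembly, rose at NaOH 4 h, with 175, 179.8, 152 and 160.5, against 118, 154, 117 and 127 at 0 h (log2FC 0.37 ± 0.12 (SE), adjusted p = 0.00876), with 1 NaOH library just under the highest of 0 h. Atp5sl fell at 1% CO2 2 h and at NaOH 4 h. It had 43.1, 34, 41.7 and 40.4 (log2FC -0.75 ± 0.15 (SE), adjusted p = 0.000263) and 50, 40.1, 40.8 and 32.7 (log2FC -0.69 ± 0.15 (SE), adjusted p = 0.000259), against 56.3, 70.9, 63.5 and 77.6 at 0 h. At 1% CO2 4 h it had 54.8, 68.6, 63.2 and 53.7, higher than at 1% CO2 2 h (log2FC 0.60 ± 0.17 (SE), adjusted p = 0.0107). Ndufaf1, an assembly factor of the membrane arm, was called in no comparison.

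**Figure D5:**
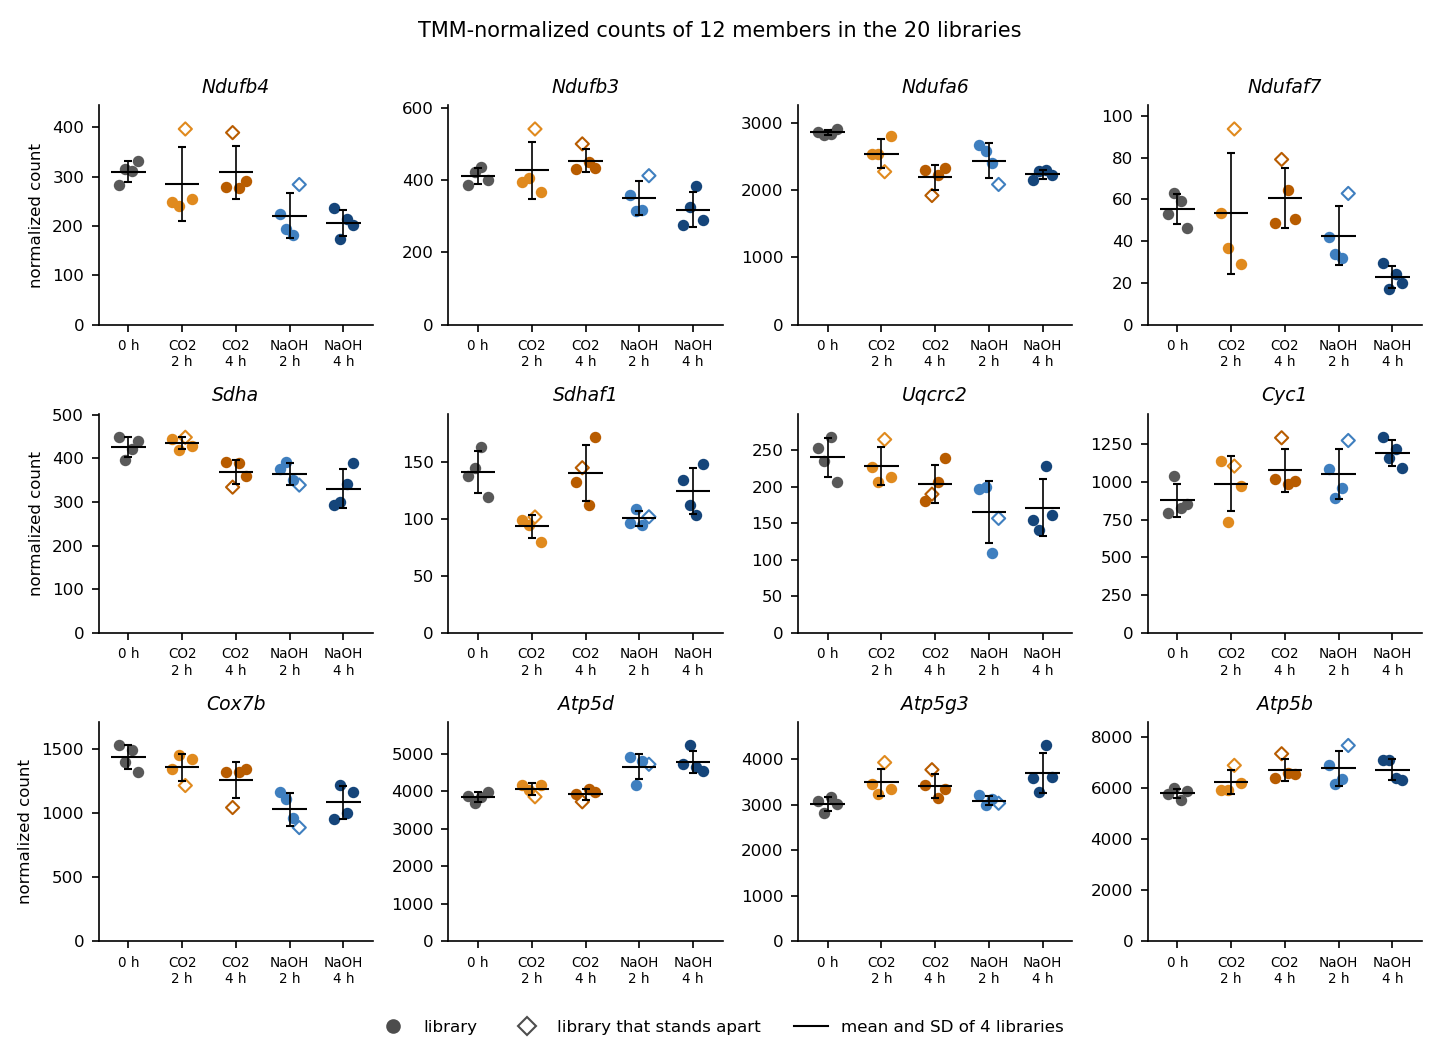
Normalized counts of 12 members (Ndufb4, Ndufb3, Ndufa6, Ndufaf7, Sdha, Sdhaf1, Uqcrc2, Cyc1, Cox7b, Atp5d, Atp5g3 and Atp5b) in each of the 20 libraries, with the mean and SD of the 4 libraries of each group and open diamonds for the 3 libraries that stood apart. The NaOH 4 h libraries of Ndufb4, Ndufaf7 and Cox7b all lie below those of 0 h, and those of Atp5d above.

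In complex II, which has 4 subunits and no part encoded in mitochondrial DNA, no subunit was called higher than at 0 h. Sdha, the subunit that binds FAD and oxidizes succinate, had 292, 300.0, 341 and 389 at NaOH 4 h, against 448, 396, 421 and 439 at 0 h, and fell with no overlap (log2FC -0.37 ± 0.09 (SE), adjusted p = 0.000592). At 1% CO2 4 h it had 391, 334, 389 and 360.3, which did not pass the test (-0.21, adjusted p = 0.0589). Sdhb, the iron-sulfur subunit, had 1082, 1254, 1047 and 1054 at 1% CO2 4 h and 1143, 1152, 1115 and 1069 at NaOH 4 h, against 1194, 1293, 1274 and 1321 at 0 h. In 1% CO2 4 h replicate 2, a library that stood apart, it overlapped the range of 0 h. Its calls (-0.20, adjusted p = 0.0416 and -0.18, adjusted p = 0.0431) were each lost without replicate 2, 3 or 4 of 0 h and without replicate 1, 3 or 4 of the treated group, with the adjusted p then between 0.0918 (without 1% CO2 4 h replicate 1) and 0.151 (without 0 h replicate 4) in the first and between 0.0568 (without NaOH 4 h replicate 1) and 0.108 (without NaOH 4 h replicate 4) in the second. Of the membrane anchors, Sdhc was called in no comparison, and Sdhd had 475, 412, 388 and 433 at 1% CO2 4 h, against 537, 598, 482 and 497 at 0 h (log2FC -0.31 ± 0.10 (SE), adjusted p = 0.0105), a call lost without 0 h replicate 2 (-0.23, adjusted p = 0.0803).

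Among the assembly factors of complex II, Sdhaf1 and Sdhaf4 changed by more than any of its subunits. Sdhaf1, needed for the iron-sulfur clusters of Sdhb, fell at 2 h of either treatment. It had 98.9, 94.7, 102 and 79.7 at 1% CO2 2 h (log2FC -0.58 ± 0.13 (SE), adjusted p = 0.000634) and 96.6, 109, 95 and 102 at NaOH 2 h (log2FC -0.49 ± 0.13 (SE), adjusted p = 0.00271), against 138, 145, 164 and 119 at 0 h. By 4 h of 1% CO2 it had 132, 145, 113 and 172, higher than at 2 h (log2FC 0.57 ± 0.13 (SE), adjusted p = 0.00298). Sdhaf4, which binds Sdha with its FAD before assembly, fell at NaOH 4 h, with 28, 45.8, 34 and 28.5, against 59.6, 65.3, 69.1 and 46.4 at 0 h (log2FC -0.82 ± 0.18 (SE), adjusted p = 0.000183). Sdhaf3 was called in none of the 8 comparisons.

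Complex III had called members in both directions at each NaOH time. Uqcrc2, a core protein of its matrix side, had 197, 199.99, 109.6 and 156 at NaOH 2 h (log2FC -0.55 ± 0.15 (SE), adjusted p = 0.00382) and 154, 141, 228 and 160.5 at NaOH 4 h (log2FC -0.48 ± 0.14 (SE), adjusted p = 0.00555), against 252, 235, 267 and 206 at 0 h. Only NaOH 4 h replicate 3 overlapped the 0 h libraries. Uqcrc1, its partner, had 707, 686, 873 and 744 at NaOH 2 h, against 596, 573, 647 and 593 at 0 h (log2FC 0.33 ± 0.10 (SE), adjusted p = 0.00862). The core pair thus went in opposite directions at NaOH 2 h, although the rise of Uqcrc1 was lost without NaOH 2 h replicate 3 (0.25, adjusted p = 0.0625). With 1% CO2 at 2 h Uqcrc1 had 609, 619, 429 and 604 and was lower than with NaOH (log2FC -0.42 ± 0.10 (SE), adjusted p = 0.00162).

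Cyc1, the cytochrome c1 that passes electrons to cytochrome c, rose at NaOH 4 h. It had 1296, 1155, 1218 and 1094, against 791, 1036, 829 and 852 at 0 h (log2FC 0.44 ± 0.12 (SE), adjusted p = 0.00404). At 1% CO2 4 h it had 1020.5, 1292, 986 and 1008, which did not pass the test (0.30, adjusted p = 0.0624). Uqcrfs1, the Rieske iron-sulfur protein, was lower with 1% CO2 than with NaOH at 4 h, with 580.1, 609, 520.2 and 570.4 against 685, 646, 823 and 678 (log2FC -0.31 ± 0.09 (SE), adjusted p = 0.00535). Its rise at NaOH 4 h relative to 0 h (0.20, adjusted p = 0.049) was lost without replicate 1 or 3 of 0 h or replicate 1, 3 or 4 of NaOH 4 h, with an adjusted p between 0.0505 without NaOH 4 h replicate 4 and 0.265 without NaOH 4 h replicate 3. Uqcr11, the smallest subunit, had 2749, 2631, 2249 and 2580.4 at 1% CO2 4 h, against 1975, 2215, 2181 and 2149 at 0 h (log2FC 0.26 ± 0.08 (SE), adjusted p = 0.00828). Uqcrb, Uqcrq and Uqcr10 were called in no comparison.

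The nuclear subunits of complex IV surround a catalytic core made from mitochondrial DNA. Cox7b, one of them, had 1164, 1104, 959 and 884 at NaOH 2 h (log2FC -0.48 ± 0.09 (SE), adjusted p = 6.15e-05) and 952, 1215, 998 and 1165 at NaOH 4 h (log2FC -0.41 ± 0.09 (SE), adjusted p = 0.000316), against 1524, 1398, 1491 and 1315 at 0 h. No library of either NaOH group reached the level of 0 h. At 1% CO2 2 h it had 1340.5, 1451, 1212 and 1416, above every NaOH 2 h library (log2FC 0.40 ± 0.09 (SE), adjusted p = 0.000977). Ndufa4 had 419, 554, 518 and 492 at NaOH 4 h, against 629.8, 777, 739.7 and 685 at 0 h, and fell (log2FC -0.51 ± 0.13 (SE), adjusted p = 0.00168). Cox6c, a subunit in the membrane, fell at NaOH 4 h, with 1820.2, 1895, 1773 and 1709, against 2305, 2133, 2120.1 and 2151 at 0 h (log2FC -0.28 ± 0.08 (SE), adjusted p = 0.00546), and with 1% CO2 at 4 h it was higher than with NaOH (log2FC 0.32 ± 0.08 (SE), adjusted p = 0.00299).

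Cox4i1 and Cox5b, subunits around the catalytic core, were called in no comparison, and Cox4i1 lay within 0.15 of 0 h on the log2 scale in all 4 comparisons with it. Cox5a, which binds Cox4i1, was higher with 1% CO2 than with NaOH at 2 h, with 1364, 1543, 1703 and 1336 against 1221, 1199.9, 1122 and 1322 (log2FC 0.29 ± 0.08 (SE), adjusted p = 0.00718). Of the isoform pairs, the widely used form was far above the muscle form: Cox6a1 averaged 6697 and Cox6a2 35.1 normalized counts at 0 h, and Cox7a2 averaged 775 while Cox7a1 did not pass the filter. Neither Cox6a form, Cox6b1 nor Cox7a2 was called in any comparison, and the ratio between isoforms was not tested. Cox4i2, Cox6b2, Cox7b2, Cox8b and Cox8c were not analysed here. Cox7a2l, a factor that joins complexes III and IV into supercomplexes, had 810.1, 704, 612 and 721 at NaOH 4 h, against 799, 983, 1038 and 861 at 0 h (-0.37, adjusted p = 0.245), and without the 3 libraries that stood apart the difference passed the test (-0.35, adjusted p = 0.00106).

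In complex V, 2 subunits were higher and 1 lower at NaOH 2 h and 4 higher and none lower at NaOH 4 h, whereas with library totals in place of TMM factors none was higher and 6 and 7 were lower. With TMM factors, 23% of all genes were called higher and 20.4% lower at NaOH 2 h, and 28.2% and 26.9% at NaOH 4 h. With library totals, 52% and 58.7% of all genes were called in either direction at these times. Atp5d, the delta subunit of the rotating stalk, had 4919.8, 4179, 4809.8 and 4720 at NaOH 2 h (log2FC 0.28 ± 0.07 (SE), adjusted p = 0.00133) and 4717, 5223, 4656 and 4533 at NaOH 4 h (log2FC 0.32 ± 0.07 (SE), adjusted p = 0.000223), against 3862, 3675, 3844 and 3985 at 0 h. All 8 NaOH libraries were above all 0 h libraries. With 1% CO2 it stayed at 3930.2, 3719, 4049 and 3976 at 4 h, below the NaOH 4 h libraries (log2FC -0.29 ± 0.07 (SE), adjusted p = 0.00131). Atp5b, the catalytic beta subunit and the most abundant gene of the complex, had 6379, 7342, 6593 and 6553 at 1% CO2 4 h and 7082, 7079, 6395 and 6311 at NaOH 4 h, against 5754, 5992, 5547 and 5864 at 0 h. It was called in 3 comparisons with 0 h, which share the same 0 h libraries, with log2FC 0.21, 0.23 and 0.21 (1% CO2 4 h, NaOH 2 h and NaOH 4 h) and adjusted p = 0.0233, 0.0153 and 0.0162. Each of these calls was lost without some library: the first without 0 h replicate 1 (adjusted p = 0.0511) or 1% CO2 4 h replicate 2 (adjusted p = 0.0993), the second without NaOH 2 h replicate 4 (adjusted p = 0.104), and the third without NaOH 4 h replicate 1 (adjusted p = 0.0566) or replicate 2 (adjusted p = 0.0511). Atp5a1, the alpha subunit, was called in no comparison. At 1% CO2 2 h the calls were Atp5g3 (0.21, adjusted p = 0.0415) and Atp5l, a membrane subunit (-0.46, adjusted p = 0.0148). The first was lost without 0 h replicate 1, 2 or 4 (adjusted p = 0.0619, 0.105 and 0.0591) or 1% CO2 2 h replicate 3 (adjusted p = 0.136), and the second without 0 h replicate 3 (adjusted p = 0.0561) or 1% CO2 2 h replicate 1 or 2 (adjusted p = 0.069 and 0.0648).

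The 3 genes of the membrane ring, Atp5g1, Atp5g2 and Atp5g3, encode the same mature protein. Atp5g3 had the highest counts of the 3, although the levels of Atp5g1 and Atp5g2 are uncertain because of their nearly identical 3′ ends elsewhere. Atp5g3 rose at NaOH 4 h, with 3583, 3275, 4300.4 and 3609.7, against 3080.2, 2815, 3157 and 3003 at 0 h (log2FC 0.29 ± 0.08 (SE), adjusted p = 0.00203). Atp5g1 had 1261, 1216, 1173 and 1064, against 1040.5, 1070.2, 1003 and 676, with 1 NaOH library just inside the range of 0 h (log2FC 0.32 ± 0.11 (SE), adjusted p = 0.0172), and that call was lost without 0 h replicate 4, the lowest of its group (0.18, adjusted p = 0.103), or without NaOH 4 h replicate 1 (0.28, adjusted p = 0.0556). Atp5g2 was not called. Of the stator, Atp5o, which links it to the catalytic head, fell at NaOH 2 h, with 1443, 1254, 1339.8 and 1173, against 1704, 1769.9, 1695 and 1574 at 0 h (log2FC -0.37 ± 0.08 (SE), adjusted p = 0.000432). Atp5h, another stator subunit, was higher with 1% CO2 than with NaOH at 2 h (log2FC 0.29 ± 0.08 (SE), adjusted p = 0.00522) and at 4 h (log2FC 0.31 ± 0.08 (SE), adjusted p = 0.00252). Atp5k, a small membrane subunit, was higher with 1% CO2 than with NaOH at 4 h, with 1866, 2191, 1616 and 1718 against 1484, 1596, 1244 and 1227 (log2FC 0.41 ± 0.09 (SE), adjusted p = 0.00052).

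Atp5s, an accessory factor of ATP synthase, was among the members of lowest level. It had 5.48, 10.5, 6.19 and 1.58 at 1% CO2 4 h (log2FC -1.14 ± 0.34 (SE), adjusted p = 0.0079) and 5.93, 6.87, 7.77 and 4.22 at NaOH 4 h (log2FC -1.14 ± 0.33 (SE), adjusted p = 0.00363), against 12.3, 14.3, 20.1 and 10.4 at 0 h. The highest 1% CO2 library just overlapped the lowest of 0 h. Ndufa11, a membrane arm subunit of complex I, is of the same kind, and its difference between 1% CO2 and NaOH at 2 h (log2FC -1.10 ± 0.41 (SE), adjusted p = 0.0389) rests on 3.16, 2.43, 6.49 and 6.73 against 7.43, 10.4, 13.4 and 9.58. It was lost without 1% CO2 2 h replicate 1 (adjusted p = 0.0937) or 2 (adjusted p = 0.144) and without NaOH 2 h replicate 2 (adjusted p = 0.0523), 3 (adjusted p = 0.144) or 4 (adjusted p = 0.0621).

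Between 2 h and 4 h little moved within a treatment. Of the 4 calls between 4 h and 2 h of 1% CO2, those kept without each library were the rises of Sdhaf1 and Atp5sl given above, which brought both back toward 0 h. None of the 6 calls between 4 h and 2 h of NaOH (Atp5g3, Cox5a, Ndufaf6 and Uqcrh higher, Ndufaf7 and Ndufs7 lower at 4 h) was kept. At an unadjusted p under 0.05 there were 19 and 17 members in these comparisons, and DESeq2 called 5 and 6.

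The genes around the complexes were followed in lists, whose counts are to be read against all genes tested. Of those, 16% were called higher and 12.4% lower at 1% CO2 2 h, 20.3% and 18.9% at 1% CO2 4 h, 23% and 20.4% at NaOH 2 h and 28.2% and 26.9% at NaOH 4 h, or 28.4%, 39.1%, 43.4% and 55.1% in either direction. Of 13 regulators of mitochondrial biogenesis, 11 were tested, with 2 higher and 0 lower at 1% CO2 2 h, 4 higher and 1 lower at 1% CO2 4 h, 3 higher and 5 lower at NaOH 2 h and 6 higher and 1 lower at NaOH 4 h (18.2%, 45.5%, 72.7% and 63.6% called). Their median log2FC were 0.17, 0.32, -0.25 and 0.42, in the same order, whereas those of all genes were -0.01, -0.01, -0.03 and 0. Pprc1, a coactivator of the PGC-1 family, rose in all 4 comparisons, with log2FC 1.03 at 1% CO2 2 h (adjusted p = 2.86e-10), 0.98 at 1% CO2 4 h (adjusted p = 8.08e-10), 1.59 at NaOH 2 h (adjusted p = 8.27e-16) and 1.15 at NaOH 4 h (adjusted p = 4.68e-12). Gabpb1, a subunit of GABP, rose as well, with 0.58 at 1% CO2 2 h (adjusted p = 0.00919), 0.58 at 1% CO2 4 h (adjusted p = 0.00875), 0.85 at NaOH 2 h (adjusted p = 0.000139) and 0.93 at NaOH 4 h (adjusted p = 1.26e-05). Tfb1m, which methylates the ribosomal RNA of mitochondria, fell with NaOH, by log2FC -1.17 at NaOH 2 h (adjusted p = 0.0113) and -2.44 at NaOH 4 h (adjusted p = 1.04e-05).

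Of the assembly factors outside the symbol rule, the 8 of complex I showed 0 higher and 1 lower at 1% CO2 2 h, 1 higher and 2 lower at 1% CO2 4 h, 0 higher and 3 lower at NaOH 2 h and 0 higher and 3 lower at NaOH 4 h, with median log2FC -0.18, -0.10, -0.21 and -0.26 and 12.5%, 37.5%, 37.5% and 37.5% called in either direction. Tmem126b, of the complex that builds the membrane arm, fell, with log2FC -0.67 at 1% CO2 4 h (adjusted p = 0.0105), -1.34 at NaOH 2 h (adjusted p = 1.72e-05) and -1.50 at NaOH 4 h (adjusted p = 8.58e-07), and Lyrm2 fell, with -0.75 at 1% CO2 2 h (adjusted p = 0.00311) and -1.02 at NaOH 4 h (adjusted p = 6.16e-05). The 5 of complex III showed 0 higher and 1 lower at 1% CO2 2 h, 0 higher and 1 lower at 1% CO2 4 h, 0 higher and 1 lower at NaOH 2 h and 1 higher and 2 lower at NaOH 4 h (medians -0.11, 0.02, -0.16 and -0.08, called 20%, 20%, 20% and 60%). Uqcc3 fell, with -0.43 at 1% CO2 2 h (adjusted p = 0.00128), -0.86 at 1% CO2 4 h (adjusted p = 4.32e-08), -0.43 at NaOH 2 h (adjusted p = 0.000932) and -0.55 at NaOH 4 h (adjusted p = 2.50e-05), and Bcs1l, which inserts the Rieske protein, had -0.95 at NaOH 4 h (adjusted p = 3.41e-06). The 20 of complex IV showed 3 higher and 1 lower at 1% CO2 2 h, 7 higher and 2 lower at 1% CO2 4 h, 1 higher and 4 lower at NaOH 2 h and 3 higher and 6 lower at NaOH 4 h (medians -0.01, 0.13, -0.03 and -0.05, called 20%, 45%, 25% and 45%), among them the copper chaperone Sco2, with 0.71 at 1% CO2 2 h (adjusted p = 3.04e-07), 0.97 at 1% CO2 4 h (adjusted p = 2.76e-10) and 0.78 at NaOH 4 h (adjusted p = 1.43e-08), and Coa3, with -0.42 at 1% CO2 2 h (adjusted p = 0.0193), -0.61 at 1% CO2 4 h (adjusted p = 0.00112) and -0.80 at NaOH 4 h (adjusted p = 1.82e-05). Of the 3 tested for complex V only Tmem70 was called, at NaOH 2 h (-0.36, adjusted p = 0.0259), and that call was lost without 0 h replicate 1 or 3 or NaOH 2 h replicate 3 or 4 (adjusted p = 0.0646, 0.0528, 0.0524 and 0.17).

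Upstream of the chain, the 17 citric acid cycle genes tested showed 2 higher and 1 lower at 1% CO2 2 h, 4 higher and 2 lower at 1% CO2 4 h, 1 higher and 4 lower at NaOH 2 h and 2 higher and 3 lower at NaOH 4 h (medians 0.05, 0.01, -0.07 and 0.02), so that 17.6%, 35.3%, 29.4% and 29.4% were called, against 28.4%, 39.1%, 43.4% and 55.1% of all genes. Idh2, the NADP-linked isocitrate dehydrogenase of mitochondria, fell, with log2FC -0.28 at 1% CO2 2 h (adjusted p = 0.00495), -0.58 at 1% CO2 4 h (adjusted p = 2.19e-07), -0.24 at NaOH 2 h (adjusted p = 0.0125) and -0.49 at NaOH 4 h (adjusted p = 2.14e-06), and Idh3a, of the NAD-linked enzyme that feeds complex I, rose, with 0.30 at 1% CO2 2 h (adjusted p = 0.0157), 0.68 at 1% CO2 4 h (adjusted p = 3.13e-07) and 0.35 at NaOH 4 h (adjusted p = 0.00189). Of the kinases and phosphatases of pyruvate dehydrogenase, 4 of 6 were tested, with 1 higher and 1 lower at 1% CO2 2 h, 1 higher and 1 lower at 1% CO2 4 h, 1 higher and 2 lower at NaOH 2 h and 1 higher and 1 lower at NaOH 4 h (medians -0.24, 0.00, -0.33 and -0.10, called 50%, 50%, 75% and 50%). Pdk2, which switches the enzyme off, fell, with -0.83 at 1% CO2 2 h (adjusted p = 6.50e-05), -1.99 at 1% CO2 4 h (adjusted p = 7.97e-11) and -1.36 at NaOH 4 h (adjusted p = 9.77e-09), and Pdp2, which switches it on, rose, with 0.78 at 1% CO2 2 h (adjusted p = 0.022), 1.75 at 1% CO2 4 h (adjusted p = 2.36e-07), 0.93 at NaOH 2 h (adjusted p = 0.0052) and 2.09 at NaOH 4 h (adjusted p = 6.73e-10). These are RNA levels and the activity of the enzyme was not measured.

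The 11 genes of coenzyme Q synthesis showed 1 higher and 2 lower at 1% CO2 2 h, 0 higher and 3 lower at 1% CO2 4 h, 3 higher and 3 lower at NaOH 2 h and 2 higher and 4 lower at NaOH 4 h (medians 0.01, -0.10, -0.04 and -0.14, called 27.3%, 27.3%, 54.5% and 54.5%). Coq9, which delivers the lipid for hydroxylation, fell most at NaOH 4 h, with -0.46 at 1% CO2 2 h (adjusted p = 6.53e-05), -0.35 at 1% CO2 4 h (adjusted p = 0.00134), -0.36 at NaOH 2 h (adjusted p = 0.00102) and -1.29 at NaOH 4 h (adjusted p = 1.64e-14), and Coq10b, which binds coenzyme Q, rose, with 0.50 at 1% CO2 2 h (adjusted p = 0.00138), 1.74 at NaOH 2 h (adjusted p = 1.94e-15) and 0.91 at NaOH 4 h (adjusted p = 2.97e-08). The 7 carriers and channels showed 2 higher and 0 lower at 1% CO2 2 h, 2 higher and 0 lower at 1% CO2 4 h, 1 higher and 0 lower at NaOH 2 h and 3 higher and 0 lower at NaOH 4 h (medians 0.02, -0.11, 0.13 and 0.12, called 28.6%, 28.6%, 14.3% and 42.9%). Slc25a5, the carrier that exchanges ADP for ATP, rose, with 0.58 at 1% CO2 2 h (adjusted p = 9.99e-07), 0.66 at 1% CO2 4 h (adjusted p = 6.30e-08) and 0.52 at NaOH 4 h (adjusted p = 2.63e-06), and so did the outer membrane channel Vdac2, with 0.62 at 1% CO2 2 h (adjusted p = 2.84e-07), 0.65 at 1% CO2 4 h (adjusted p = 8.44e-08) and 0.39 at NaOH 4 h (adjusted p = 0.00015). Each call of a gene given with its adjusted p in these lists was kept when each library was left out, apart from Tmem70 as stated and those of Tmem126b, Idh2, Coa3, Idh3a and Pdp2 that follow. Tmem126b at 1% CO2 4 h was lost without 1% CO2 4 h replicate 1 (adjusted p = 0.0594), and Idh2 at NaOH 2 h without 0 h replicate 3 (adjusted p = 0.0553). At 1% CO2 2 h, Coa3 was lost without 0 h replicate 1 or 2 (adjusted p = 0.0612 and 0.0596) or 1% CO2 2 h replicate 3 (adjusted p = 0.0828), Idh3a without 1% CO2 2 h replicate 3 (adjusted p = 0.0887), and Pdp2 without 0 h replicate 4 (adjusted p = 0.0737) or 1% CO2 2 h replicate 1 or 3 (adjusted p = 0.0943 and 0.0505).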

How the data were processed

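Bulk 3′-end RNA sequencing (MARS-seq) was analysed in 20 libraries of NIH3T3 cells, 4 per group. Per the study's methods and the submitters' processing notes, the authors trimmed reads with cutadapt, aligned them to mm10 with STAR (2.4.2a in the notes) and counted unique molecular identifiers per RefSeq gene with HTSeq to give the deposited counts. The deposited normalized signal, counts that the authors divided by DESeq2 size factors, was used only as a check.

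The counts as deposited were fitted with edgeR 4.0.16 (TMM factors, robust quasi-likelihood fit over all 20 libraries, 1 term per group) in R 4.3.3, with DESeq2 1.42.0 as an alternative. Genes with a mean of at least 5 normalized counts were tested, and p-values were adjusted over all of them (Benjamini-Hochberg, called at 0.05 or less). The fit was tested on simulated data. Other alternatives changed the scaling, the filter, the libraries in the fit and the replicate block. Genes were named by rule: the called members of largest log2FC (up to 5 per direction and comparison, where the higher group averaged 20 normalized counts or more), chosen core subunits and isoform sets, the highest and lowest subunit of each complex, and up to 3 called members of smallest adjusted p in each other list. Atp5s and Atp5j were named after their values were seen, as were Ndufs4, Ndufb8 and Cox6c, which had calls kept without each library. Some other members outside the rule are named only as called or not called. Of the members, 1 is counted in the totals and not reported here by name. Members and lists were chosen with earlier results of these data known. Near-identical 3′ ends were sought with BLAST 2.17.0, and promoter windows were taken from RefSeq (GRCm38.p6).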

Additional observations from a re-analysis of the deposited data

Results flagged for a closer look

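In some groups the normalized count of 1 library lay far from the other 3, so that the gap to its nearest neighbour, as a share of the range of the 4, passed Dixon's 95% critical value. The members named for their log2FC or as core subunits or isoforms were screened, with the shares of counts by complex. Of these, 20 of 295 groups were of this kind, where chance gives about 1 in 20. Other members named in the text, Atp5j among them, were not screened. Most fell in 2 of the libraries that stood apart. 1% CO2 2 h replicate 3 was lowest of its group in Atp5g1 (916 against 1147 to 1187 in the other 3) and Uqcrc1 (429 against 604 to 619), and highest in Ndufb4 (397 against 241 to 256), Sdhc (664 against 541 to 560.4) and Sdhd (588 against 523 to 532). 1% CO2 4 h replicate 2 was lowest in Cox7b (1041 against 1318 to 1342) and Ndufv1 (909 against 990.3 to 991), and highest in Cox8a (1687 against 1528 to 1537), Cyc1 (1292 against 986 to 1020.5), Ndufb4 (389.5 against 276 to 291), Sdhb (1254 against 1047 to 1082) and Sdhc (855 against 545 to 596). Elsewhere it was seen in Ndufaf2 in NaOH 2 h replicate 2 (114 against 141 to 146), Sdhc in NaOH 4 h replicate 1 (668 against 455 to 485), and Ndufaf3 (32.7 against 25.2 to 26.3) and Uqcr11 (1989 against 2432 to 2523) in NaOH 4 h replicate 4. Among the shares of all counts, complex I took 0.97% in NaOH 2 h replicate 1, complex II 0.0946% in 1% CO2 2 h replicate 3 and 0.0637% in NaOH 4 h replicate 2, and the subunits together 3.46% in 0 h replicate 2.

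Members also differed between the treatments at the same time by the direct test of 1% CO2 against NaOH (edgeR, adjusted p of at most 0.05). The log2FC of 1% CO2 against NaOH at 2 h was above 0 in Ndufab1 (0.49), Uqcrc2 (0.48), Cox7b (0.40), Ndufc2 (0.34) and Atp5h (0.29), and below 0 in Atp5sl (-0.47), Uqcrc1 (-0.42), Cox8a (-0.25) and Atp5d (-0.20). At 4 h it was above 0 in Ndufaf7 (1.38), Ndufb4 (0.58), Atp5sl (0.54), Ndufa5 (0.51) and Ndufb3 (0.51), and below 0 in Uqcrfs1 (-0.31), Atp5d (-0.29), Sdhd (-0.27) and Uqcrh (-0.21). Without the 3 libraries that stood apart, the calls at 2 h of Uqcrc2 (0.38, adjusted p = 0.166), Atp5sl (-0.45, adjusted p = 0.101), Cox8a (-0.21, adjusted p = 0.102) and Atp5d (-0.17, adjusted p = 0.109) and at 4 h of Sdhd (-0.25, adjusted p = 0.0504) and Uqcrh (-0.17, adjusted p = 0.0689) were lost, and each of these 6 was also lost without at least 1 single library.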

How the results depend on the processing

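The counts of members called moved with the scaling and with the libraries in the fit. With library totals in place of TMM factors they were 20 (13 with TMM factors) at 1% CO2 4 h and 48 (19) and 52 (29) at NaOH 2 h and 4 h, all against 0 h, 10 (4) at 1% CO2 4 h against 2 h and 34 (16) for 1% CO2 against NaOH at 2 h. With library totals these were 23.3%, 55.8%, 60.5%, 11.6% and 39.5% of members, against 41.9%, 52%, 58.7%, 15.8% and 35.8% of all genes. Fitted on the libraries of the 2 groups alone, 1% CO2 4 h against 0 h gave 23 (26.7%, against 42.4% of all genes). With the subunits alone, 2 were called at 1% CO2 2 h against 0 h and 2 at 1% CO2 4 h against 2 h. With 1 library left out in turn the counts ran between 3 and 5 at 1% CO2 2 h, 9 and 14 at 1% CO2 4 h, 14 and 21 at NaOH 2 h and 24 and 28 at NaOH 4 h, all against 0 h. They ran between 4 and 12 for 1% CO2 4 h against 2 h (12 without 1% CO2 2 h replicate 3), 2 and 8 for NaOH 4 h against 2 h (2 without NaOH 4 h replicate 3, 3 without NaOH 2 h replicate 4, 8 without NaOH 2 h replicate 2), 10 and 17 for 1% CO2 against NaOH at 2 h (10 without NaOH 2 h replicate 3), and 17 and 22 at 4 h. The other alternatives, of the filter, the size factors and the tool, kept every count of members called within 1.5 times its value. DESeq2 gave 5, 16, 18 and 29 against 0 h (1% CO2 2 h and 4 h, NaOH 2 h and 4 h).

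Same-numbered libraries of different groups did not deviate together (median correlation -0.0217 over 40 pairs, 2 of them over 0.1), so the numbers were not taken as a pairing. With the replicate block the counts were 4, 11, 19 and 27 against 0 h in the same order, 4 at 1% CO2 4 h against 2 h, 4 at NaOH 4 h against 2 h, and 16 and 22 for 1% CO2 against NaOH at 2 h and 4 h.

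Of the 184 called differences of members and named list genes, none changed its direction under any alternative run, and 178 stayed called with DESeq2, 152 with library totals, 155 without the 3 libraries that stood apart (an alternative chosen after the data were seen) and 178 with the replicate block. Depth limits the low members most: differences of Ndufa11 and Atp5s rest on few counts.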

Other observations

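Of the 20 libraries, 5% CO2 0 h replicate 2 held exactly 3890000 counts and 1% CO2 2 h replicate 4 exactly 3010000 counts in the table, whereas the totals of the others were not round.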
